A study of Mus musculus with 2 samples.

Results

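The regions marked by H3K4me1 around the transcription factor genes Irf4 and Irf8 were described in mouse pre-B cells. They were all the called regions overlapping 2 fixed windows of the mouse build mm9 by at least 1 base, whatever their length. The Irf4 window ran on chromosome 13 from 30740000 to 30960000, and the Irf8 window, drawn to take in enhancers downstream of the gene, ran on chromosome 8 from 123180000 to 123420000. Of 48130 regions in the list, 42 were members, with 19 in the Irf4 window and 23 in the Irf8 window. The rule for members used positions only and no measured value, but was set with earlier results of these data known.

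H3K4me1 was mapped by chromatin immunoprecipitation and sequencing (ChIP-seq) in 1 library, and a second library of input DNA, made without antibody, served the authors' region calling. Both came from pre-B cells of the bone marrow of B6 (C57BL/6) mice of 6 to 14 weeks, males and females, whose genotype is labelled RAG1-/- and which carried a rearranged IgM transgene. Mice without this recombinase cannot assemble their own antigen receptor genes, and the transgene supplies the heavy chain in its place. The labels do not say how many animals were pooled, nor how the cells were purified. The file header counts 50945360 tags for H3K4me1; the input depth is not analysed here. With 1 library per group there was no spread between replicates, so no p-value is given. The intervals below cover counting error only and treat neighbouring regions as independent, so they do not test a difference. The list measures neither expression nor protein, so the pre-B label was not tested against marker genes.

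Irf4 and Irf8 encode related interferon regulatory factors that bind DNA weakly by themselves and join the ETS factors PU.1 and Spi-B on composite ETS-IRF sites, among them sites in the immunoglobulin light-chain enhancers. In mouse B-cell development both act at the pre-B stage, where they promote the exit from cycling and the opening of the light-chain loci, and mice lacking both genes are blocked there. Irf4 later drives plasma-cell differentiation, while Irf8 also directs the monocyte and dendritic-cell lineages, in which enhancers downstream of the gene control it. H3K4me1 is a mark of enhancers, active or primed, and of the flanks of active promoters.

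The starts of both genes are shown because the windows were drawn around them. The 250 bases before each annotated start were taken from RefSeq on build GRCm38.p6, and for both genes lie on the plus strand, at chr13:30748983-30749232 for Irf4 and chr8:120736108-120736357 for Irf8. These positions belong to another build than the regions and cannot be set beside the mm9 positions given below, so which region holds either start was not analysed here. Capitals mark matches on either strand to GGAA, the core of ETS sites, and to TTCNNNGAA, the form bound by STAT factors.
Irf4: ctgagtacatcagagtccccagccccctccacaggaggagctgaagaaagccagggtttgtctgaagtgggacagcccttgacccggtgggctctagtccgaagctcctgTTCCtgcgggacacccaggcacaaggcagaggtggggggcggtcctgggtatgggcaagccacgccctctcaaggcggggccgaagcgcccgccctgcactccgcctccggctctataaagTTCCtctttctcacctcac
Irf8: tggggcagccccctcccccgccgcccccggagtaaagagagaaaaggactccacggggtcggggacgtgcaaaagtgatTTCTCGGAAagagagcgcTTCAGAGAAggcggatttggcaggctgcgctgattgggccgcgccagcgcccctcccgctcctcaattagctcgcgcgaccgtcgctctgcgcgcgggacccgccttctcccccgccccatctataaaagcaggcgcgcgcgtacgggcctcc
The Irf8 start held 2 matches to TTCNNNGAA, at 171 to 163 and 153 to 145 bases before the start, the first of which contains the single GGAA of the sequence. Of the 32851 promoters of the RefSeq table, 7.02% held TTCNNNGAA in the same 250 bases, and the Irf4 start held none. GGAA was matched 2 times before Irf4, both on the minus strand, and is in 93.4% of all promoters. The composite ETS-IRF form, GGAA and GAAA with any 2 bases between them (2.3% of promoters), and the interferon-response form, GAAA and GAAA spaced in the same way (2.98%), were in neither sequence, which says only that these letters are not in these windows. The E-box CANNTG (66.2%) was also in neither, and GGGA and CC with any 4 bases between them, close to the NF-kB site, had 1 match before each gene (17.6%). The Irf8 sequence had 29 CG dinucleotides and a GC content of 67.2%, beside 11 and 63.6% for Irf4. The medians over all promoters were 6 CG dinucleotides and 52.4% GC. At least as many CG dinucleotides as before Irf8 were in 6.78% of promoters, and as before Irf4 in 35.6%. A further annotated Irf8 start had 2 matches to GGAA, 2 to CANNTG and none to the other forms. It had 8 CG dinucleotides, a number that 43% of promoters reached, and 54.0% GC.

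In the GRCm38.p6 gene order, Irf4 lies between Dusp22, a dual-specificity phosphatase gene, and Exoc2, a gene of the exocyst complex. Uqcrfs1, for a subunit of the respiratory chain, comes before Dusp22, and Hus1b follows Exoc2 by order of start. Irf8 follows Emc8 and Cox4i1, with Cox4i1 encoding a cytochrome c oxidase subunit, and is followed by the forkhead gene Foxf1 and then Mthfsd. There are 9 annotated long non-coding RNA genes between Irf8 and Foxf1 and none between Irf4 and either protein-coding neighbour. Which of these genes reach into the windows was not analysed here, so a member region is not assigned to any gene.

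The Irf4 window was among the most heavily covered stretches of its size. Its 19 regions covered 96.2 kb of 220 kb, which is 43.7% of the window, beside 4.56% of chromosome 13 and 4.49% of all 19 autosomes, taken between their first and last regions. Coverage was thus 9.73 times that of the autosomes. Regions stood at 8.64 per 100 kb in the window and at 1.95 per 100 kb over the autosomes, a ratio of 4.42 (counting interval 2.66 to 6.90, which treats regions as independent). To place the window among others, the autosomes were divided into 10905 adjoining tiles of 220 kb, the locus itself included. Of these tiles, 2.95% held at least as many regions and 0.183%, or 20 tiles, at least as many covered bases. The median tile had 2 regions and 2.20 kb covered, and 40.9% of tiles had no region.

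**Figure D1:**
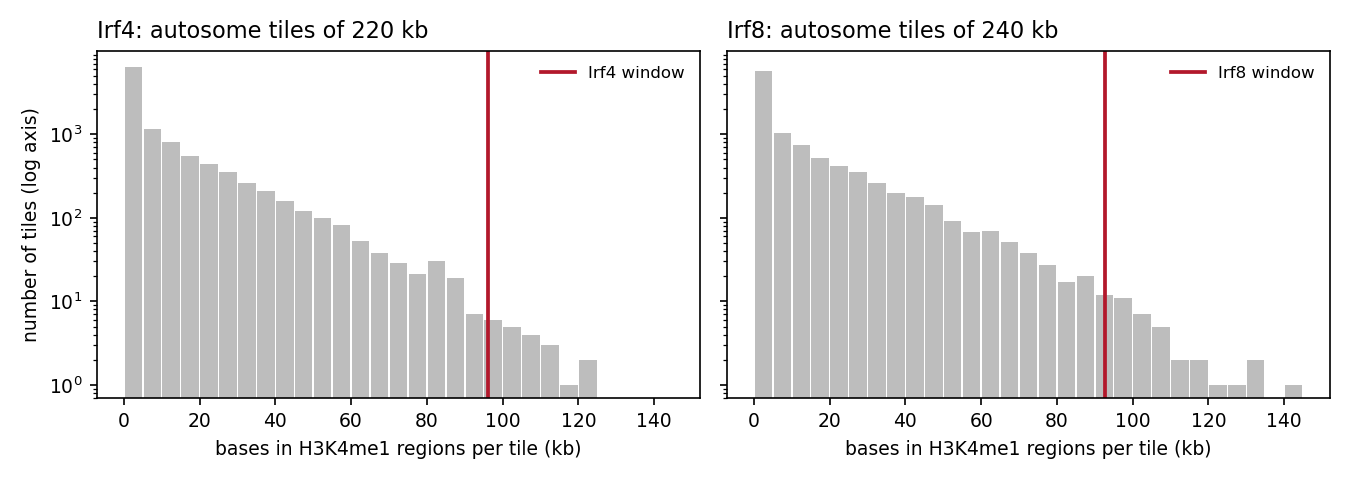
Number of autosome tiles (log axis) by the kilobases of each tile inside H3K4me1 regions, for tiles of 220 kb (left, Irf4) and 240 kb (right, Irf8); red lines give the windows. The Irf4 window, at 96.2 kb, and the Irf8 window, at 92.7 kb, stand in the far right tail, where 20 and 39 tiles reach as far.

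Most of the coverage at Irf4 came from 4 long regions. The longest spanned 21.6 kb, from 30801176 to 30822736, and the next spanned 19.2 kb, from 30772885 to 30792046. Regions of 13.5 kb (30842753 to 30856214) and 13.3 kb (30740761 to 30754098) followed, and the fifth was 6.64 kb long (30921524 to 30928158). The 4 longest held 70.2% of the covered bases of the window. They ranked 87, 149, 468 and 486 by length among all regions of the list. Regions of at least 10 kb were 4 of 19 at Irf4 (21.1%, Wilson 95% interval 8.51 to 43.3%) and 2.15% of the whole list, and those of at least 5 kb were 5 of 19 (26.3%, interval 11.8 to 48.8%) and 8.92% of the list. There were 3 regions of the shortest length, 501 bases, or 15.8% of members (interval 5.52 to 37.6%) beside 14.3% of the list, which lies inside the interval. This length is that of a single 500-base search window of the caller. The median member was 2205 bases long (order-statistic 95% interval 1280 to 6635), beside 1482 on chromosome 13 and 1497 in the list, both inside that interval.

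**Figure D2:**
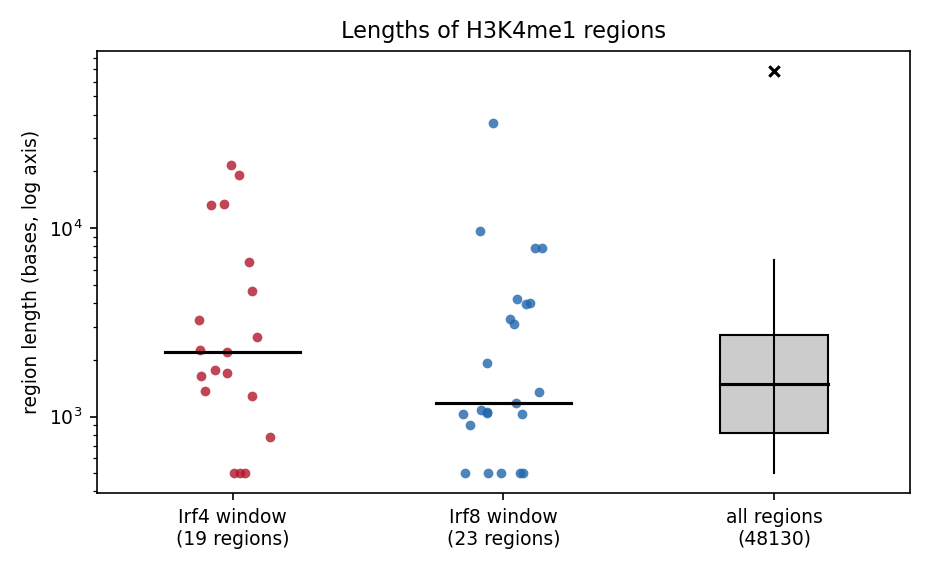
Region length in bases (log axis) for each member of the Irf4 and Irf8 windows, with the median as a line, beside all regions of the list (box, 25th to 75th percentile with the median; line, 5th to 95th percentile; cross, longest). Irf4 has 4 regions over 10 kb and Irf8 has 1, of 36.0 kb; the medians are 2205 bases at Irf4, 1180 at Irf8 and 1497 in the list.

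Marking at Irf4 was concentrated at the lower positions of the window. The gene start was not placed among these positions, so this does not say which side of the start is marked. Below its midpoint, position 30850000, the window was covered to 68.9%, and above it to 18.5%. In steps of 20 kb, coverage was at least 46.2% in each of the first 6 and at most 33.2% in the other 5. It was highest, 94.1%, from 30800001 to 30820000, and the step from 30940001 to 30960000 had no region at all. A region of 1640 bases, from 30839502 to 30841141, stood 1.61 kb before the region of 13.5 kb, near the middle of the window. The last member, at 30928158, was followed by 110.5 kb without a region, most of it past the window. Gaps this long or longer made up 6.88% of all gaps in the list.

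Members at Irf4 stood close together. The median gap between neighbours was 2.38 kb, beside 8.87 kb in the list. Gaps under 2.5 kb were 9 of 18 (50%, interval 29.0 to 71.0%), beside 26% of the list's neighbouring pairs. The narrowest, of 539 bases, lay between the region of 3254 bases that crosses the lower window edge and the region of 13.3 kb. Gaps over 10 kb were 3 of 18, beside 47.4% in the list, at 15.4, 18.2 and 17.2 kb. Only gaps between members were counted, which leaves out the 110.5 kb after the last member, while the list's shares take in all gaps. Close spacing also goes with the density given above and is not a separate result. Joined over gaps of up to 10 kb, the members fell into 4 domains. The main one ran from 30769484 to 30858826. Its 10 regions covered 68.9 kb of 89.3 kb, or 77.2%, and it ranked 39 of 22837 such domains by covered bases. Besides the regions of 21.6, 19.2 and 13.5 kb, it held 7 of 501 to 4648 bases.

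The domain before it, from 30715009 to 30754098, began outside the window. Its 4 regions, 2 of which were members, covered 90.4% of 39.1 kb. After the 18.2 kb gap came a sparse domain of 3 regions from 30876996 to 30885031, 8.04 kb wide and 49.6% covered, with lengths of 2205, 501 and 1280 bases. The last domain, from 30902235 to 30928158, held regions of 783, 1767, 501 and 6635 bases that covered 37.4% of it.

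**Figure D3:**
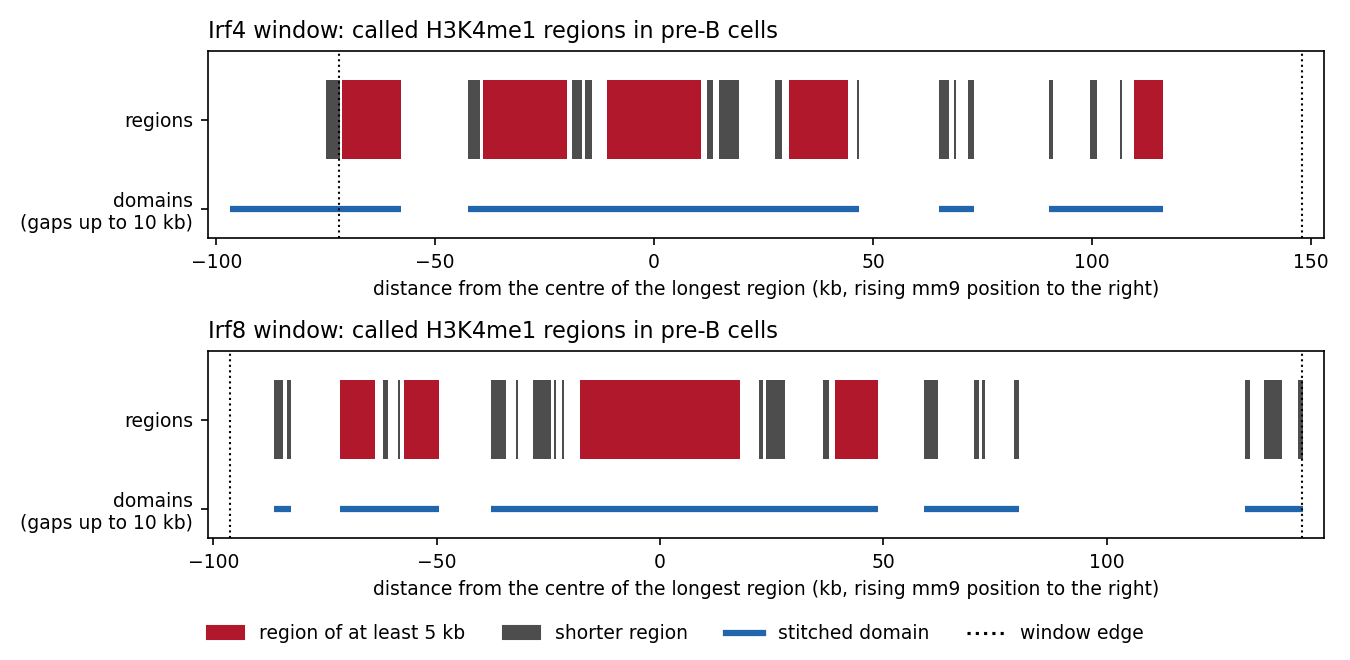
Called H3K4me1 regions (boxes; red for at least 5 kb) and domains joined over gaps of up to 10 kb (blue) in the Irf4 window (top) and the Irf8 window (bottom), by distance in kb from the centre of the longest region; dotted lines are window edges. At Irf4 the 4 regions over 10 kb start below the window's midpoint and a region of 6.64 kb lies above it; at Irf8 a region of 36.0 kb lies below the midpoint, and a gap of 50.7 kb above it.

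The Irf8 window was covered to 38.6%, and 1 very long region held 38.8% of the covered bases. Its 23 regions covered 92.7 kb of 240 kb, beside 4.13% of chromosome 8 and 4.49% of the autosomes, so coverage was 8.59 times that of the autosomes. Regions stood at 9.58 per 100 kb in the window and at 1.95 per 100 kb over the autosomes, a ratio of 4.90 (counting interval 3.11 to 7.36). Of 9999 adjoining autosome tiles of 240 kb, 1.43% held at least as many regions and 0.39%, or 39 tiles, at least as many covered bases. The median tile had 2 regions and 2.47 kb covered.

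The longest region at Irf8 spanned 36.0 kb without a break, from 123258282 to 123294233. It ranked 18 by length among the 48130 regions and took up 14.98% of the window. The other regions of at least 5 kb were 9.61 kb (123315556 to 123325163), 7.88 kb (123218949 to 123226832) and 7.80 kb (123204631 to 123212434) long, and the fifth longest was 4.22 kb (123300062 to 123304280). Only the longest reached 10 kb, 1 of 23 members (4.35%, Wilson 95% interval 0.772 to 21.0%) beside 2.15% of the list. Those of at least 5 kb were 4 of 23 (17.4%, interval 6.98 to 37.1%) beside 8.92% of the list, and the list's shares lie inside both intervals.

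The median of all 23 members at Irf8 was 1180 bases (order-statistic 95% interval 1029 to 3951), beside 1502 on chromosome 8 and 1497 in the list, both inside that interval. Without the members of 501 bases it was 2516 bases, and at Irf4 the same step gave 2443 bases. The list's median without its regions of that length was not computed, so neither value is set beside the list. At Irf8 the shortest length was shared by 5 of 23 (21.7%, interval 9.66 to 41.9%), beside 14.3% of the list, which lies inside the interval. Regions of at least 2000 bases were 9 of 23 at Irf8 (39.1%, interval 22.2 to 59.2%) and 10 of 19 at Irf4 (52.6%, interval 31.7 to 72.7%), beside 37.5% of the list. The list's share lies inside both intervals, and the intervals of the windows overlap, which describes these counts and is not a test.

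Coverage at Irf8 was highest within the long region, where it is full by definition, and lower on both sides. The 20 kb from 123260001 to 123280000 were covered in full and the next 20 kb to 75.7%. Between 123200001 and 123260000, the steps were covered to 52.0, 41.6 and 45.0%, and between 123300001 and 123340000 to 50.1 and 41.3%. The step from 123180001 to 123200000 had 14.8%. Below its midpoint, position 123300000, the window was covered to 54.8%, and above it to 22.4%.

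**Figure D4:**
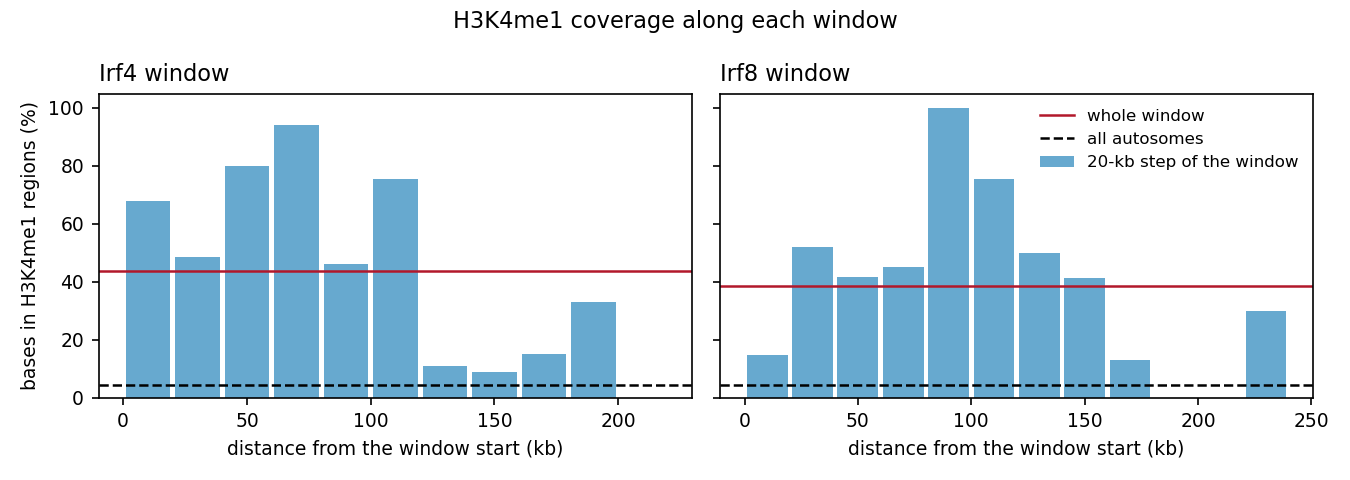
Share of bases inside H3K4me1 regions (%) in adjoining 20-kb steps from the start of each window, with the whole window (red) and all autosomes (dashed, 4.49%). At Irf4 the first 6 steps hold at least 46.2%; at Irf8 one step is covered in full and 2 steps have no region.

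At higher positions than the long region, 11 members followed. The nearest were a region of 898 bases 4.24 kb away and the region of 4.22 kb. A region of 1355 bases then stood 1400 bases before the one of 9.61 kb. Farther on, a region of 3.11 kb ran from 123335362 to 123338466, and regions of 1063, 501 and 1034 bases took the marking as far as 123356576. There followed 50.7 kb with no region, the longest unmarked stretch of either window between members; gaps this long or longer made up 15.2% of the list's gaps. Past it stood regions of 1086, 4000 and 1180 bases, from 123407234 to 123420287, the last of which crosses the window edge. The positions of individual known enhancers on mm9 were not used here, so no member is called one of them.

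Neighbouring members at Irf8 had a median gap of 3.31 kb, beside 8.87 kb in the list. Gaps under 2.5 kb were 10 of 22 (45.5%, interval 26.9 to 65.3%), beside 26% of the list, and gaps over 10 kb were 4 of 22, beside 47.4% in the list. As at Irf4, gaps leading out of the window, here of 30.7 and 52.0 kb, were left out, and close spacing goes with the density. The members fell into 5 domains when joined over up to 10 kb. The largest ran from 123238521 to 123325163. Its 10 regions covered 60.8 kb of 86.6 kb, or 70.2%, and it ranked 52 of 22837 domains by covered bases. Before the long region it held members of 3302, 501, 3951, 501 and 501 bases, and after it those of 898, 4219, 1355 and 9608 bases.

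A domain of 4 regions on the lower side, from 123204631 to 123226832, was covered to 77.6% and held the regions of 7.80 and 7.88 kb with members of 1039 and 501 bases between them. The first domain of the window had regions of 1927 and 1029 bases, from 123189865 to 123193712. The domain after the largest one, from 123335362 to 123356576, was covered to 26.9% by its 4 regions, the lowest share of the 5, and the last, past the 50.7 kb gap, to 48.0%.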

How the data were processed

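The submitters' processing notes name Bowtie 0.12.9, HOMER 4.7 and mm9. The authors called regions in HOMER's histone style, H3K4me1 over input, per the file headers. Peaks of 500 bases needed 26 tags and 4-fold over input. The header gives a minimum distance between peaks of 1000 bases. Gaps between listed regions were narrower, down to 539 bases at Irf4 and 686 at Irf8, so that setting is not a minimum gap between regions. The length of 501 bases matches the caller's peak size, and whether narrow dips come from the caller was not tested. The deposited score is constant at 1 and was not used. Region starts and ends (deposited positions in bases) gave every value here.

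Bases were counted inside the windows, domains joined gaps of up to 10 kb, and tiles ran from the first region of each autosome. Positions count from 1. Named regions were the 5 longest per window and those of the largest domain or beside the longest gap. The members and lists were chosen with earlier results of these data known. Alternatives covered the overlap rule, length, window size, background, gap and tiles. The counting steps were tested on simulated data. A planned comparison of IRF proteins was not run. Python 3.11.15, numpy 2.4.6, pandas 2.3.3, scipy 1.17.1 and matplotlib 3.10.9 were used.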

Additional observations from a re-analysis of the deposited data

How the results depend on the processing

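Joining neighbours under 2.5 kb apart gave 10 regions in place of 19 at Irf4 and 13 in place of 23 at Irf8; the other overlap and length rules kept the counts within 1.5 times. Narrowing each window by 20 kb on each side gave 45.9% covered at Irf4 and 41.9% at Irf8, and regions of at least 1000 bases 42.7 and 37.2%. Density over that of tiles holding a region was 2.59 at Irf4 and 2.93 at Irf8. Domains numbered 7 and 8 at a gap of up to 5 kb, and 1 and 2 at up to 25 kb. The densest 100 kb, picked as the highest and set against fixed tiles, gave 0.729% (Irf4) and 1.25% (Irf8) of tiles with as many regions. With as many covered bases it gave 0.0583% (Irf4) and 0.0708% (Irf8). Of 30 alternatives, 15 moved, that is by over 1.5 times for counts or outside the main interval for other values. No paired analysis was possible because each group had 1 sample. Tags per region were not used here, so members near the calling threshold are unknown.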

Other observations

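The order of the deposited list was looked at after its rows were seen. It runs neither by position nor strictly by length, and the sources used here do not name its key. Across the 48130 regions of this 1 library, list position and length had a Spearman rank correlation of -0.97. Among regions of the shortest length, list position followed the number in the region's name, with rank correlations of 0.92 to 0.97 within each of the 19 autosomes. The position is therefore given as the place in the authors' list and not read as signal.

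The region of 36.0 kb at Irf8 stood at place 12 of the list, ahead of its length rank of 18. At Irf4 the regions of 21.6, 19.2 and 13.3 kb stood at places 106, 133 and 461, and the region of 13.5 kb (30842753 to 30856214) at 993, behind its length rank of 468. Ahead of their length rank stood 13 of 19 members at Irf4 and 10 of 23 at Irf8, with equal lengths sharing the first rank. The same share over the whole list was not computed, so neither count is read as a result. Ties also weigh on both counts. All regions of 501 bases share rank 41261, while their median place over the list was 44661.5. The Irf8 members that follow are examples and were not chosen by a rule, and some other members stood among entries close to their own length. The first Irf8 member, 1927 bases long, stood at place 8360, where the surrounding 200 entries had a median length of 3328 bases. The region of 3.11 kb after the largest Irf8 domain stood at 5471, among entries with a median of 4210 bases. The region of 4000 bases past the Irf8 gap stood at 10982, among entries with a median of 2843 bases. Of regions of equal length in the Irf4 window, those of 501 bases stood at places 40199, 40493 and 47231, and at Irf8 at 39435, 42410, 43415, 46546 and 46547.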
